A study of Mus musculus with 79 samples.

Results

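The 10 genes described here are Tuba3a, Tuba3b, Tktl2, Rbmxl2, Nxf2, Efhc2, Scml2, Magea5, Magea8 and Nlrp4c. Most are best known from the testis or the germ line. All were chosen because their RNA was higher in a DNMT triple knockout line than in its parental line. They are 10 of 35230 genes in the deposited table, picked by symbol, and all 10 passed the filter on low values that left 15267 genes for testing. No testis or sorted germ cell was among the samples, so the name testis-type rests on what is known of the genes and not on these libraries.

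RNA was read from 79 libraries of mouse cells by strand-specific sequencing after oligo-dT capture. The 4 cell lines were DNMT_KO, which lacks Dnmt1, Dnmt3a and Dnmt3b, its parental line DNMT_WT, TET_KO, which lacks Tet1, Tet2 and Tet3, and its own parental line TET_WT. Each line was sampled at 7 conditions: embryonic stem cells in 2i/LIF, a medium with inhibitors of MEK and GSK3 and the cytokine LIF that holds cells in the naive state and lowers DNA methylation (ESC D0), epiblast-like cells after 1 and 2 days (EpiLC D1 and D2), and embryoid bodies, which are floating aggregates that start to form germ layers, after 2, 4, 6 and 8 days (EB D2, D4, D6 and D8). Of the 28 groups, 23 held 3 libraries and 5 held 2 (DNMT_KO and TET_KO at EB D2, and DNMT_WT at ESC D0, at EpiLC D1 and in EB D4). Every knockout was 1 line, so the knockout and any other difference between a line and its parent cannot be told apart, and the labels say neither which exons were removed nor the strain. Whether replicates came from separate cultures is not in the labels, so each p-value reflects the spread between these samples alone. In whole embryoid bodies, fewer cells of a type and less RNA per cell cannot be told apart.

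DNA methyltransferases add a methyl group to cytosine, mostly where it is followed by guanine (CpG), and methylated CpG-rich promoters are commonly silent. A set of germline genes is known to be held silent in the somatic cells of the embryo in this way, after methylation is laid down around the time the embryo implants. TET enzymes oxidise methylated cytosine and so take part in its removal. Many testis genes lie on the X chromosome, and here 5 of the 10 did (Nxf2, Efhc2, Scml2, Magea5 and Magea8), against 571 of all 15267 genes tested (3.74%).

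The promoters of the genes are shown first because the 2 lines lack enzymes that act on CpG. The sequences are the 250 bases before the RefSeq start (GRCm38.p6), from 5′ to 3′ on the strand of the gene, with every CpG in capitals. They set the promoter richest in CpG, that of Rbmxl2 (chr7:107209195-107209444, plus strand, 23 CpG in these bases), beside 3 with fewer, of Tuba3a (chr6:125286082-125286331, minus strand, 8 CpG), Nlrp4c (chr7:6044911-6045160, plus strand, 7 CpG) and Magea8 (chrX:154995851-154996100, minus strand, 7 CpG). The poorest, of Efhc2 and Magea5, are not printed.
Rbmxl2: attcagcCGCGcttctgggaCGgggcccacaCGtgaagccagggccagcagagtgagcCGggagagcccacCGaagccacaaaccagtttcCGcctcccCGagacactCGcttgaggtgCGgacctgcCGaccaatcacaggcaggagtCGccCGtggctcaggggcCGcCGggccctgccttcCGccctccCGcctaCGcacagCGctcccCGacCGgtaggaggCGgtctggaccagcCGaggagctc
Tuba3a: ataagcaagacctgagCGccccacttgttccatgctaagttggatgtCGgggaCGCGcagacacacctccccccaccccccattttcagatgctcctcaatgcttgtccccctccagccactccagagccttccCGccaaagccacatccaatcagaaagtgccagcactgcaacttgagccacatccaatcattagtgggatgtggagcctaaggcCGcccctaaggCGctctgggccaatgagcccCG
Nlrp4c: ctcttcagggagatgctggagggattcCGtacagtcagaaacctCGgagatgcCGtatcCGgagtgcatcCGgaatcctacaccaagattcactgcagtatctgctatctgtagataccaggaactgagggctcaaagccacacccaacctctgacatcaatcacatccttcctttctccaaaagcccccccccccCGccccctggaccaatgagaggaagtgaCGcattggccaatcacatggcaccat
Magea8: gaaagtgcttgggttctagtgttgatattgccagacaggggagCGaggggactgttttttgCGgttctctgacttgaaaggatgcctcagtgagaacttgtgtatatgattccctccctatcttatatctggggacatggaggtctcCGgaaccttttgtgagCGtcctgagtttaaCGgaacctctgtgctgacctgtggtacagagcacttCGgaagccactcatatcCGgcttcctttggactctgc

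Over the window from 250 bases before to 50 bases after the start, Rbmxl2 held 29 CpG, Nxf2 20, Tuba3b 16, Tktl2 14, Scml2 13, Tuba3a 12, Magea8 10, Nlrp4c 7, Efhc2 4 and Magea5 0. The median was 12.5 over the 10 genes, 8 over 27025 genes with such a window and 20 over 23 of the methylation-sensitive germline genes listed further on. The 10 genes thus held no common promoter class, and 14.3% of all genes had at least as many CpG as Rbmxl2. For Scml2 the RefSeq start lay 45557 bases inside the gene as the table gives it, for Magea5 1592, for Efhc2 573 and for Tuba3b 206, so these windows may not be the start used in the cells, and the RNA table does not tell.

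**Figure D1:**
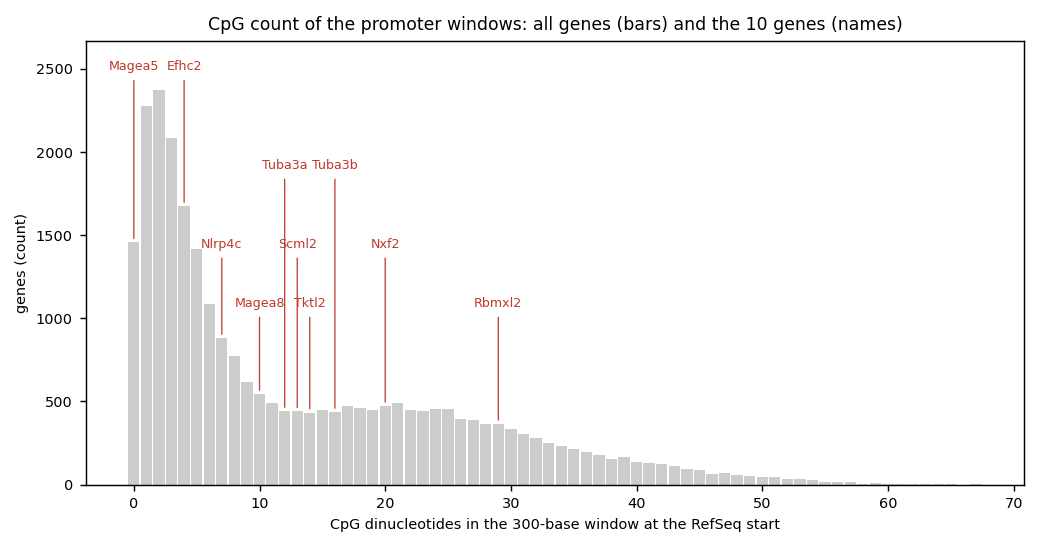
Number of CpG dinucleotides in the 300-base window around the RefSeq start (horizontal axis) against the number of genes with that number (grey bars, 27025 genes). Red names mark the 10 genes, from 0 in Magea5 to 29 in Rbmxl2, and for Nxf2, which has 2 windows, the one with 20.

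A search for 3 motifs in these windows, on both strands, gave a marked cluster in Nxf2. The motif CACGTG, the E-box that MYC, MAX and MGA bind in its unmethylated form, was searched because it contains a CpG. It was present 5 times in the last 80 bases before the start of Nxf2, a number that 3 of 27025 genes reached (0.0111%). The matches that begin at -80, -61 and -42 from that start are evenly spaced, and the letters between them repeat almost unchanged. Part of the 5 matches thus lies in 1 short repeat. The motif was present 1 time in Rbmxl2, while 7.39% of all genes had at least 1. The Nxf2 stretch (chrX:134964755-134965004, minus strand) is printed with these motifs in capitals.
Nxf2: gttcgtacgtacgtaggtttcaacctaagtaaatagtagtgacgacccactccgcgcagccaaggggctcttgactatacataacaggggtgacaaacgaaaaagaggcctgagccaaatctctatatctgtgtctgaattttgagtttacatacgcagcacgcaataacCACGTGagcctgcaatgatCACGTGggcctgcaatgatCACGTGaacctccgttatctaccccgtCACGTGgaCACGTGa
The E2F-type motif GCGGGAA was found in Tuba3a, Tuba3b and the second Nxf2 window. It was in 4.88% of all genes, counted over 1 window a gene, that with the most CpG. By that count the match in the second Nxf2 window would be left out. In both tubulin genes it reads on the opposite strand, TTCCCGC, inside a stretch of 30 bases that the 2 promoters share letter for letter (Tuba3a at chr6:125286192-125286221, minus strand, Tuba3b at chr6:145615836-145615865, plus strand), shown with the motif in capitals.
Tuba3a: cctccagccactccagagccTTCCCGCcaa
Tuba3b: cctccagccactccagagccTTCCCGCcaa
TGACGTCA, the CRE-type motif, was in none of the 10 windows and in 1.88% of all genes. These matches describe letters and do not show that a factor binds.

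Levels are given in RPKM, reads scaled by the length of the merged exons of a gene in kilobases and by the reads of the library in M, which stands for mega, and as values of single libraries. The deposited log2 values fell on steps of whole reads, which gave back a depth of 7.76 to 13.9 M reads per library (median 11.2 M). Of the 790 values of the 10 genes, 140 stood at 0 reads and 438 lay between 1 and 100 reads, so most of the lower levels rest on few reads. The library labels were checked on the targeted genes. Dnmt1 lay between 3.63 and 6.49 RPKM in the 20 DNMT_KO libraries and between 39.4 and 63.2 RPKM in the 18 DNMT_WT libraries, without overlap, while Tet1 (2.52 to 13.5 RPKM in TET_KO, 2.33 to 26.3 RPKM in TET_WT), Tet2 and Tet3 overlapped over the whole course, so that RNA counted over the whole gene does not by itself identify the TET_KO libraries. Compared within ESC D0, Tet1 was lower in TET_KO (log2 change -1.45, adjusted p = 8.55e-07). The same comparison within the other conditions is not given here. 1 library stood apart: Gm42418 took 15.1% of the reads of replicate 2 of TET_WT at EB D4, against at most 2.31% elsewhere, and the call at EB D4 is given with and without it.

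Tuba3a (ENSMUSG00000067702, 6:125278274-125286042, minus strand, GRCm38) and Tuba3b (ENSMUSG00000067338, 6:145615757-145621479, plus strand) code for alpha-tubulin of the type known from mouse testis, a building block of microtubules. Tuba3a was abundant in both DNMT lines as stem cells, and the gap between them opened in embryoid bodies. At ESC D0 it stood at 102, 113 and 108 RPKM in DNMT_KO, against 89.9 and 90 RPKM in DNMT_WT. At EpiLC D1 it was 71.3, 70.6 and 73.7 RPKM in DNMT_KO and 67.3 and 73.8 RPKM in DNMT_WT, and here the libraries overlapped. The lines then drew apart in every embryoid body sample. At EB D4 the values were 32.9, 31 and 27.6 RPKM in DNMT_KO and 1.89 and 1.67 RPKM in DNMT_WT. At EB D8 they were 31.7, 37.5 and 32.7 RPKM in DNMT_KO and 0.188, 0.0477 and 0.0556 RPKM in DNMT_WT, which is 1727 against 5 reads over 3 libraries each. The mean at EB D8 was 31.6% of that at ESC D0 in DNMT_KO, while no DNMT_WT library had more than 3 reads there. In DNMT_KO the order of means ran ESC D0, EpiLC D1, EpiLC D2, EB D2, EB D8, EB D4 and EB D6, and from EpiLC D2 onward neighbours in this order overlapped. In DNMT_WT the order followed the day, with EpiLC D2 above EB D2 of the same day. Only the last neighbours, EB D6 and EB D8, overlapped.

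Tuba3b, by contrast, was higher in DNMT_KO at every condition, without overlap. At ESC D0 it stood at 21.8, 20.2 and 21.2 RPKM in DNMT_KO, against 7.68 and 7.01 RPKM in DNMT_WT. At EpiLC D2, its highest point in both lines, the values were 32.9, 30.6 and 31.1 RPKM in DNMT_KO and 8.94, 10.4 and 8.41 RPKM in DNMT_WT. At EB D8 it held 10.9, 10.9 and 11.4 RPKM in DNMT_KO, against 0, 0.203 and 0 RPKM in DNMT_WT, where all 5 reads came from 1 library. The mean at EB D8 in DNMT_KO was thus 52.4% of that at ESC D0, after a low at EB D4 (4.13, 5.01 and 4.31 RPKM). The 2 genes share sequence, as 33.6% of the 50-base words of Tuba3a and 29.5% of those of Tuba3b occur in another gene, mostly in each other, and how the authors' counting treated such reads is not given in the sources used here, so the split between them is uncertain. Tuba3a also overlaps 4930417O13Rik on the opposite strand.

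**Figure D2:**
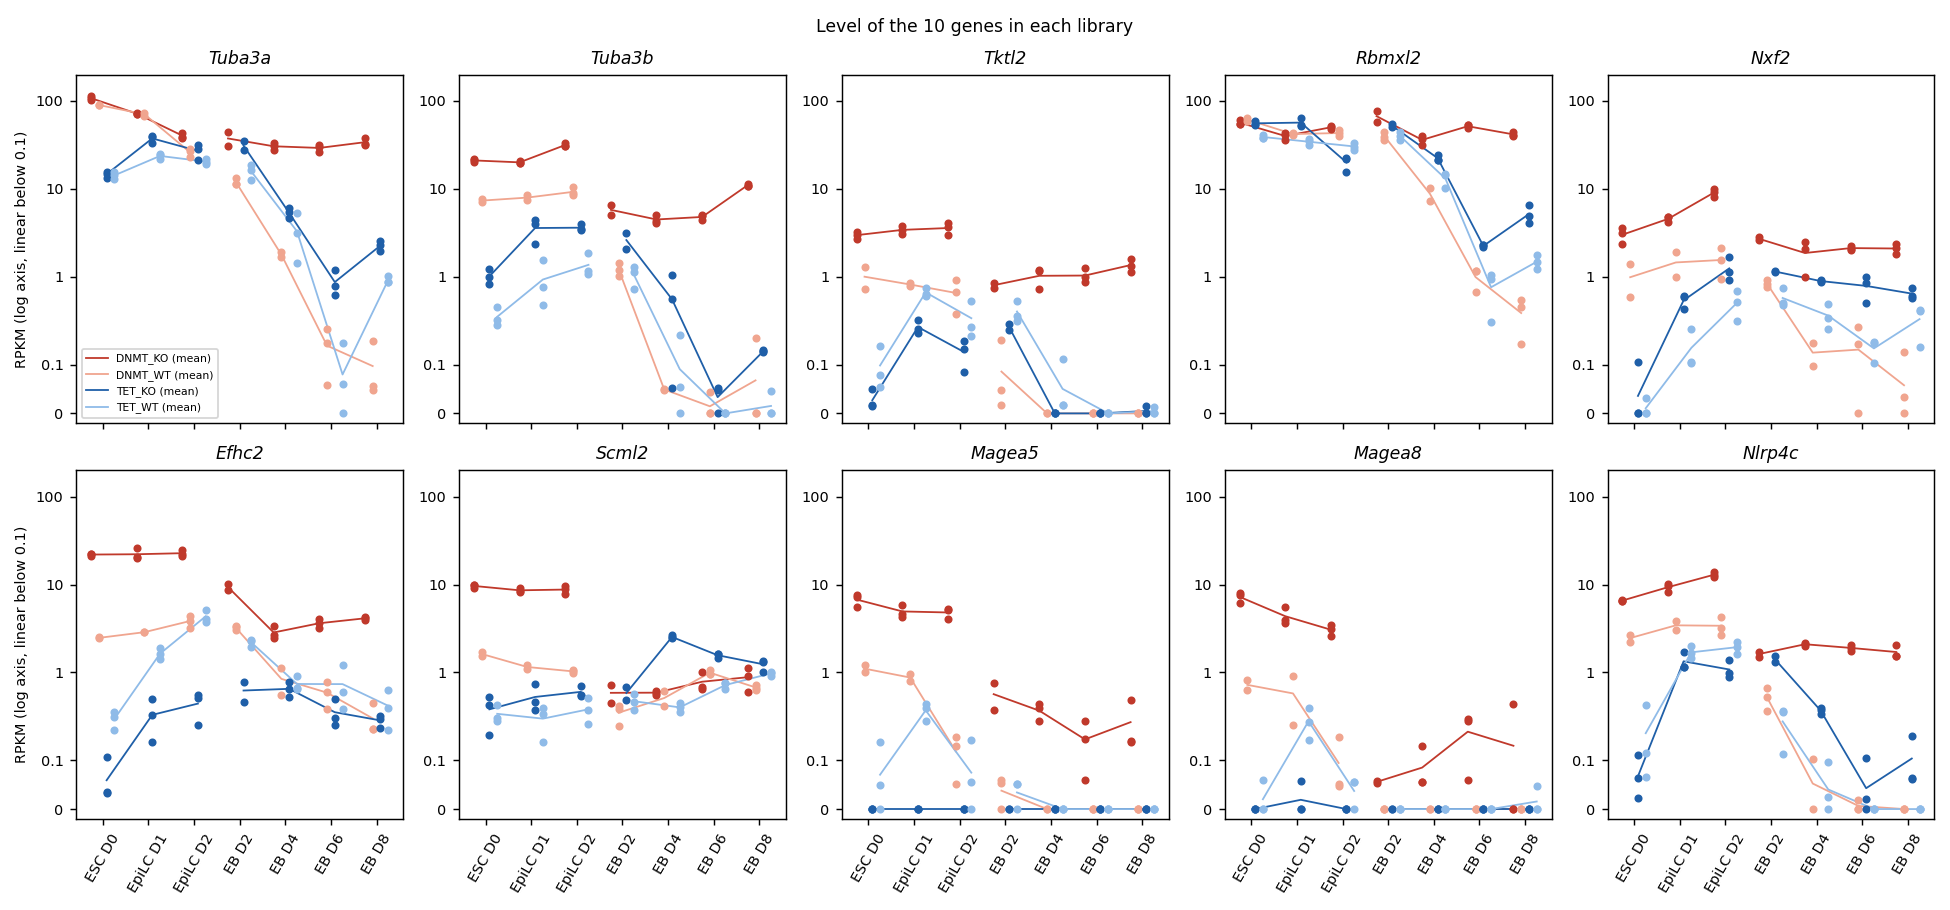
Level of each gene in RPKM (vertical axis, logarithmic and linear below 0.1) at the 7 conditions (horizontal axis). Points are the 79 libraries, lines join the group means within ESC and EpiLC samples and within embryoid bodies, and the colours are, left to right, DNMT_KO (dark red), DNMT_WT (light red), TET_KO (dark blue) and TET_WT (light blue). Tuba3a and Rbmxl2 start at similar levels in both DNMT lines and part in embryoid bodies, while Scml2, Magea5 and Magea8 stand apart mainly at ESC D0 and in EpiLC.

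In the TET lines, which took no part in the choice of the genes, both tubulin genes passed the test upward in TET_KO, at different stages. Tests between these lines used limma on log2(RPKM + 0.5) with Benjamini-Hochberg adjustment over all 15267 genes, and a gene counts as called where the adjusted p is below 0.05 and the log2 change reaches 1 or -1. Tuba3b at EpiLC D1 was 3.96, 2.33 and 4.46 RPKM in TET_KO and 1.56, 0.755 and 0.47 RPKM in TET_WT, and was called higher (log2 change 1.55, SE 0.261, adjusted p = 0.000644). It was called higher at EpiLC D2 as well, at 3.37, 3.48 and 3.99 RPKM in TET_KO against 1.88, 1.15 and 1.07 RPKM in TET_WT (log2 change 1.16, SE 0.148, adjusted p = 7.23e-05), a call that ended with a pseudocount of 1 RPKM (0.98). Both differences exceeded the spread, with no library of TET_WT reaching the lowest of TET_KO. Such a gap was common, at 27.3% of all genes tested at EpiLC D1 and 23.2% at EpiLC D2. At EB D2 the values were 3.17 and 2.06 RPKM in TET_KO and 1.28, 1.12 and 0.719 RPKM in TET_WT (log2 change 1.01, SE 0.211, adjusted p = 0.00502). This last call stood just past the limit of size and was lost without replicate 1 of TET_KO (0.75) or replicate 3 of TET_WT (0.85), with each library centred on its median (0.91), with quantile normalization (0.89), with a pseudocount of 1 RPKM (0.82) and with a replicate block (0.91). At ESC D0 Tuba3b had a log2 change of 0.83 (adjusted p = 0.000112), under the limit of size.

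Tuba3a at ESC D0 overlapped between the TET lines, at 14.9, 13.4 and 15.7 RPKM in TET_KO and 12.8, 14.3 and 15.6 RPKM in TET_WT (log2 change 0.04, adjusted p = 0.683). It was called higher at EB D6, at 1.19, 0.789 and 0.625 RPKM in TET_KO against 0.0609, 0.178 and 0 RPKM in TET_WT (log2 change 1.18, SE 0.162, adjusted p = 9.22e-05). Quantile normalization (0.96) and a pseudocount of 1 RPKM (0.76) each ended the call. At EB D8 TET_KO held 2.28, 1.96 and 2.56 RPKM and TET_WT 0.862, 0.863 and 1.02 RPKM, again without overlap but short of the limit (log2 change 0.96, adjusted p = 1.53e-05). In DNMT_KO the level at EB D8 averaged 34 ± 3.12 RPKM (SD, n = 3), which is given for scale and was not tested against TET_KO. Genes of chromosome 6, where both tubulin genes lie, had a median log2 change in TET_KO that differed from that of all genes. The difference ran from -0.03 (EpiLC D2) to -0.27 (EB D8), and its part in the values of the tubulin genes was not tested.

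**Figure D3:**
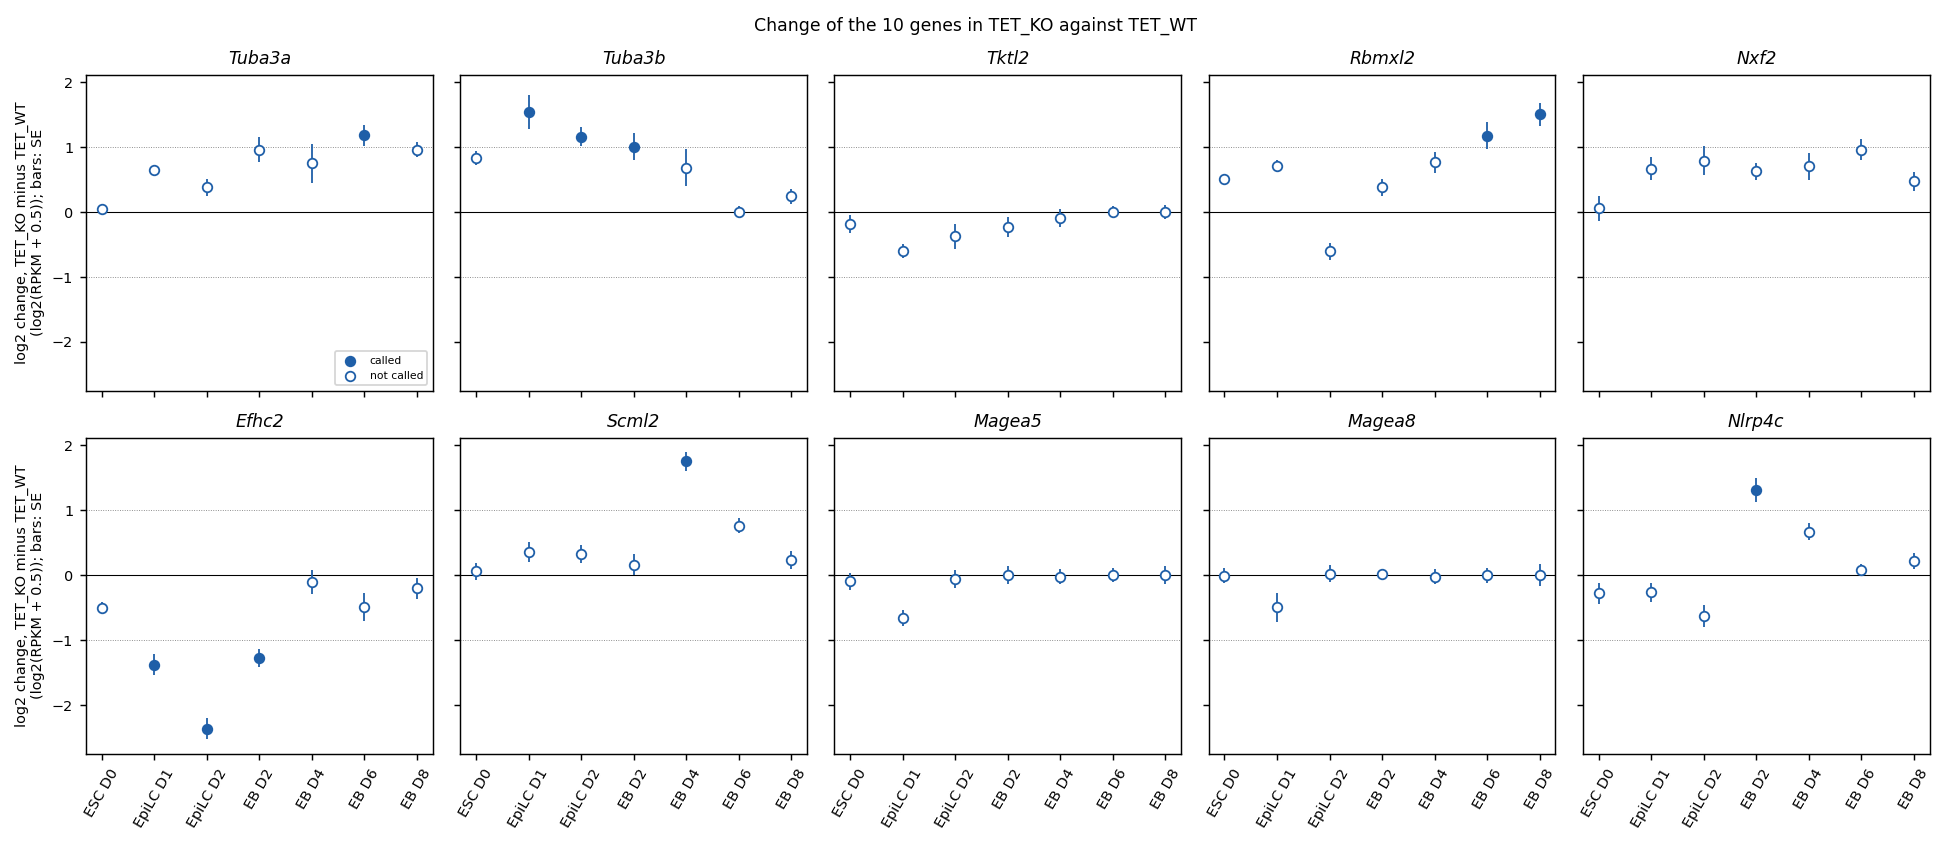
Log2 change of TET_KO over TET_WT for each gene (vertical axis, on log2(RPKM + 0.5)) at the 7 conditions (horizontal axis). Filled points passed the test and the limit of 1 in size (dotted lines), open points did not, and bars are standard errors. The 8 filled points above 0 belong to Tuba3a, Tuba3b, Rbmxl2, Scml2 and Nlrp4c, and the 3 below 0 to Efhc2.

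Rbmxl2 (ENSMUSG00000073894, 7:107209445-107210916, plus strand) codes for an RNA-binding protein that guards splicing during meiosis in mouse, and arose as a copied gene without introns. It was the steadiest of the 10 in DNMT_KO. At ESC D0 it stood at 60.9, 55.4 and 54.1 RPKM in DNMT_KO, against 58.9 and 63.9 RPKM in DNMT_WT, and the libraries overlapped. At EB D6 it was 49.2, 52.6 and 53 RPKM in DNMT_KO, against 1.15, 1.16 and 0.664 RPKM in DNMT_WT. By EB D8 it stood at 39.6, 40.8 and 44.6 RPKM in DNMT_KO and 0.449, 0.538 and 0.171 RPKM in DNMT_WT, a ratio of means of 108. DNMT_KO therefore kept 73.3% of its ESC D0 mean at EB D8, and DNMT_WT 0.629%. Its means in DNMT_KO ran over a narrow range, the lowest at EB D4 (31.7, 36.7 and 39.9 RPKM) and the highest at EB D2 (76.7 and 57.7 RPKM).

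Rbmxl2 was also high in both TET lines as stem cells, and it passed the test upward in TET_KO late in embryoid bodies. At EB D8 it was 4.85, 4.12 and 6.52 RPKM in TET_KO, against 1.22, 1.46 and 1.77 RPKM in TET_WT, and was called higher (log2 change 1.50, SE 0.175, adjusted p = 1.11e-05). At EB D6 it was 2.27, 2.18 and 2.27 RPKM in TET_KO and 0.937, 0.304 and 1.04 RPKM in TET_WT (log2 change 1.18, SE 0.207, adjusted p = 0.00058), a call that was lost without replicate 2 of TET_WT (0.88), with quantile normalization (0.88) and with a pseudocount of 1 RPKM (0.91). At EpiLC D2 the difference ran the other way but short of the limit of size, with 22.6, 21.7 and 15.7 RPKM in TET_KO and 27.9, 29.9 and 33.4 RPKM in TET_WT (log2 change -0.60, adjusted p = 0.00231). At ESC D0 TET_KO stood above, at 59.2, 53.6 and 54.1 RPKM against 37.7, 41 and 38.1 RPKM in TET_WT (log2 change 0.51, adjusted p = 4.1e-05), again short of the limit.

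Nxf2 (ENSMUSG00000009941, X:134944526-134964754, minus strand) codes for a relative of the general mRNA export factor Nxf1 that is made mainly in testis. It was higher in DNMT_KO at every condition, without overlap, at a low level. At EpiLC D2, its peak, it was 9.09, 9.96 and 8.04 RPKM in DNMT_KO and 2.14, 1.57 and 0.949 RPKM in DNMT_WT. At EB D8 it was 2.14, 2.34 and 1.8 RPKM in DNMT_KO and 0, 0.14 and 0.0326 RPKM in DNMT_WT (181 against 6 reads). In the TET lines Nxf2 was not called at any condition, although its log2 change was above 0 at the 6 conditions after ESC D0. The nearest was EB D6, where TET_KO held 1, 0.856 and 0.501 RPKM and TET_WT 0.179, 0.105 and 0.175 RPKM (log2 change 0.96, SE 0.164, adjusted p = 0.000475). In contrast to Tuba3a and Rbmxl2, Nxf2 was nearly absent from the stem cells of both TET lines, with 0, 0 and 0.107 RPKM in TET_KO and 0, 0 and 0.0318 RPKM in TET_WT. Its general relative Nxf1 ranged from 9.61 to 33.4 RPKM over all 79 libraries.

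Tktl2 (ENSMUSG00000025519, 8:66511756-66518335, plus strand) codes for a protein related to transketolase, the enzyme of the pentose phosphate pathway. At ESC D0 it was 2.99, 3.25 and 2.68 RPKM in DNMT_KO and 0.726 and 1.27 RPKM in DNMT_WT. At EB D8 it was 1.33, 1.59 and 1.15 RPKM in DNMT_KO, while all 3 DNMT_WT libraries stood at 0 reads, so it was at least 26.7-fold higher in DNMT_KO when DNMT_WT is set at a floor of 3 reads in 1 library. DNMT_WT had no read of Tktl2 in any of its 8 libraries from EB D4 to D8, whereas all 9 of DNMT_KO did. In the TET lines Tktl2 was not called. At EpiLC D1 it was lower in TET_KO without overlap, at 0.253, 0.227 and 0.323 RPKM against 0.598, 0.642 and 0.75 RPKM in TET_WT (log2 change -0.60, adjusted p = 0.000822), short of the limit of size. Genes of chromosome 8, where Tktl2 lies, had a median log2 change in TET_KO that was 0.34 to 0.41 below that of all genes at the 7 conditions, and the part of this shift in the value of Tktl2 was not tested.

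Efhc2 (ENSMUSG00000025038, X:17132049-17319368, minus strand) codes for a protein of the EF-hand family found in motile cilia and flagella. It was far higher in DNMT_KO, and it was the 1 gene of the 10 that was called lower in TET_KO. At ESC D0 it was 22.3, 22.5 and 21 RPKM in DNMT_KO, against 2.5 and 2.44 RPKM in DNMT_WT, a ratio of means of 8.88. By EB D8 Efhc2 was at 4.28, 4.18 and 3.93 RPKM in DNMT_KO and 0.443, 0.226 and 0.23 RPKM in DNMT_WT, a ratio of 13.8. DNMT_KO stood above DNMT_WT without overlap at all 7 conditions. The TET lines differed already at ESC D0, at 0.0356, 0.0336 and 0.108 RPKM in TET_KO and 0.312, 0.35 and 0.224 RPKM in TET_WT, without overlap but short of the limit of size (log2 change -0.51, SE 0.0893, adjusted p = 0.000815) and on 5 against 25 reads, a ratio of means of 0.2. At EpiLC D2 the gene was higher than at ESC D0 in both lines, in TET_KO short of the limit (log2 change 0.74, SE 0.135, adjusted p = 5.61e-05) and in TET_WT past it (log2 change 2.60, SE 0.135, adjusted p = 1.2e-12). At EpiLC D2 it was 0.249, 0.558 and 0.517 RPKM in TET_KO, against 4.09, 5.18 and 3.76 RPKM in TET_WT, and was called lower (log2 change -2.37, SE 0.163, adjusted p = 6.82e-07). At EpiLC D1 it was 0.33, 0.495 and 0.16 RPKM in TET_KO and 1.41, 1.89 and 1.6 RPKM in TET_WT (log2 change -1.38, SE 0.157, adjusted p = 4.8e-05). At EB D2 it was 0.457 and 0.786 RPKM in TET_KO and 1.97, 2.33 and 2.26 RPKM in TET_WT (log2 change -1.27, SE 0.139, adjusted p = 0.000146). None of these 3 groups overlapped, and each of the 3 calls held when any 1 library of the TET lines at that condition was left out. With a pseudocount of 1 RPKM the calls at EpiLC D1 (-0.99) and EB D2 (-0.98) fell just short of the limit. From EB D4 on the 2 TET lines overlapped. Efhc2 overlaps the pseudogene Gm14514 on the opposite strand.

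Scml2 (ENSMUSG00000000037, X:161117193-161258213, plus strand) codes for a Polycomb-group protein known from mouse spermatogonia, where it takes part in silencing somatic genes and in forming the chromatin of the germ line. It differed widely between the DNMT lines in stem cells and EpiLC and little in embryoid bodies. At ESC D0 it was 9.92, 9.22 and 9.76 RPKM in DNMT_KO and 1.7 and 1.54 RPKM in DNMT_WT, and at EpiLC D2 the ratio of means reached 8.54. At EB D6 it was 0.69, 1.01 and 0.651 RPKM in DNMT_KO, against 0.969, 0.954 and 1.05 RPKM in DNMT_WT, and the lines overlapped there and at EB D4 and D8. In TET_KO it passed the test at a stage where DNMT_KO was low. At EB D4 it was 2.45, 2.64 and 2.51 RPKM in TET_KO, against 0.354, 0.403 and 0.443 RPKM in TET_WT, and was called higher (log2 change 1.75, SE 0.141, adjusted p = 3.94e-08). Without the TET_WT library rich in Gm42418 the log2 change was 1.76. At EB D6 the difference was smaller, at 1.64, 1.46 and 1.61 RPKM in TET_KO and 0.65, 0.752 and 0.752 RPKM in TET_WT (log2 change 0.76, adjusted p = 0.000172), and at EB D8 it was 0.23 (adjusted p = 0.181). In TET_WT the highest mean was at EB D8, in TET_KO at EB D4, and in both DNMT lines at ESC D0.

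Magea5 (ENSMUSG00000079349, X:155053061-155063145, minus strand) and Magea8 (ENSMUSG00000079350, X:154985775-154995850, minus strand) belong to the MAGE family of X-linked genes, whose human relatives are the cancer-testis antigens, silent in most adult tissues other than testis and found again in tumours. Both were higher in DNMT_KO as stem cells and in EpiLC, and close to 0 in embryoid bodies. Magea5 at ESC D0 was 7.58, 7.12 and 5.52 RPKM in DNMT_KO and 1.2 and 1.01 RPKM in DNMT_WT. Magea8 was 8.03, 7.61 and 6.09 RPKM in DNMT_KO and 0.628 and 0.814 RPKM in DNMT_WT at the same stage. At EpiLC D2, where DNMT_WT had nearly lost both, Magea5 was 5.16, 4.02 and 5.24 RPKM in DNMT_KO and 0.0522, 0.184 and 0.143 RPKM in DNMT_WT. Magea8 was 3.49, 3.12 and 2.57 RPKM in DNMT_KO and 0.0521, 0.183 and 0.0477 RPKM in DNMT_WT there. At EB D8 Magea5 kept 0.165, 0.491 and 0.159 RPKM in DNMT_KO, or 15 reads in all, against 0 in DNMT_WT, and Magea8 had reads in 1 library of DNMT_KO only. The 2 cannot be cleanly separated, since 46.2% of the 50-base words of Magea5 and 41.5% of those of Magea8 occur in other genes of the family, and Magea5 overlaps Magea2 on the same strand. In the TET lines the highest group mean was 0.37 RPKM for Magea5 and 0.278 RPKM for Magea8, so the log2 change could reach at most 0.80 and 0.64 there, and neither could be called. Magea5 had no read in any of the 20 TET_KO libraries, while TET_WT reached 0.393, 0.435 and 0.282 RPKM at EpiLC D1 (log2 change -0.66, adjusted p = 0.00131), and a library without a read allows up to the level of 3 reads.

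Nlrp4c (ENSMUSG00000034690, 7:6045161-6105150, plus strand) belongs to a family of NLR proteins whose mouse members are best known from oocytes and early embryos. It is thus less tied to testis than most of the 10. At EpiLC D2 it was 13.8, 12.2 and 12.8 RPKM in DNMT_KO and 4.3, 2.68 and 3.2 RPKM in DNMT_WT. By EB D8 Nlrp4c was at 2.07, 1.52 and 1.52 RPKM in DNMT_KO, and 0 in the 3 libraries of DNMT_WT, at least 24.1-fold higher against the floor of 3 reads in 1 library. It was higher in DNMT_KO at all 7 conditions without overlap. In the TET lines it was called higher at EB D2, with 1.3 and 1.53 RPKM in TET_KO and 0.118, 0.351 and 0.361 RPKM in TET_WT (log2 change 1.31, SE 0.185, adjusted p = 0.000595), and a pseudocount of 1 RPKM ended this call (0.92). At EpiLC D2 TET_KO lay below TET_WT without overlap, at 0.89, 0.972 and 1.38 RPKM against 1.95, 2.24 and 1.63 RPKM (log2 change -0.63, adjusted p = 0.00922), short of the limit. A share of 10.7% of its 50-base words occurs in other genes, most of it in Nlrp4e, which reached at most 0.492 RPKM in any library.

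For the DNMT lines the counts are a description of the contrast that chose the genes. DNMT_KO stood above DNMT_WT without overlap for 8 to 10 of the 10 genes at each condition. Over all genes tested this share was 18.8% (EpiLC D2) to 36.1% (EB D6). Called higher in DNMT_KO were 8 at ESC D0 (all genes tested: 0.511%), 8 at EpiLC D1 (0.478%), 8 at EpiLC D2 (1.09%), 6 at EB D2 (0.937%), 7 at EB D4 (4.51%), 7 in EB D6 (11.1%) and 7 at EB D8 (9.76%). The 2 not called at ESC D0 were Tuba3a and Rbmxl2, and the 3 not called at EB D8 were Scml2, Magea5 and Magea8. The values fell into 3 courses. Tuba3a and Rbmxl2 were similarly high in both DNMT lines as stem cells and were kept in DNMT_KO. Tuba3b, Tktl2, Nxf2, Efhc2 and Nlrp4c were higher in DNMT_KO throughout. Scml2, Magea5 and Magea8 were higher in DNMT_KO chiefly in stem cells and EpiLC. Just inside the limit of size stood Nlrp4c at EB D2 (log2 change 1.07), and just outside it Magea5 at EB D2 (0.92).

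**Figure D4:**
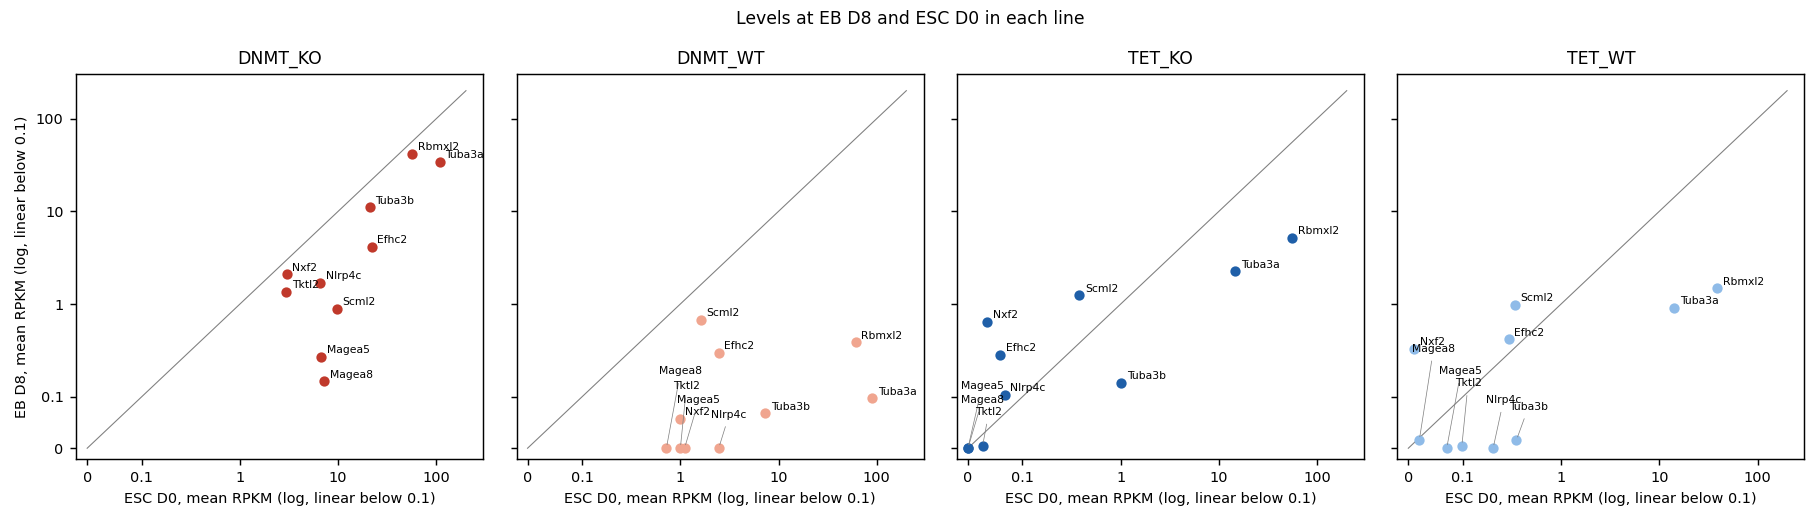
Mean level at EB D8 (vertical axis, RPKM) against mean level at ESC D0 (horizontal axis, RPKM) for the 10 genes in each line, on logarithmic axes that are linear below 0.1, with a grey line of equal levels. In DNMT_KO all 10 points lie below the line but above 0.1, whereas in DNMT_WT 9 of the 10 lie under 0.4 and 4 of these at 0.

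In TET_KO against TET_WT the calls were fewer and mixed. Called higher were 0 of 10 at ESC D0 (all genes tested: 4.61%), 1 at EpiLC D1 (3.35%), 1 at EpiLC D2 (4.8%), 2 at EB D2 (4.7%), 1 at EB D4 (7.6%), 2 in EB D6 (3.24%) and 1 at EB D8 (5.84%). Called lower was Efhc2 alone, at EpiLC D1 (3.28% of all genes), EpiLC D2 (3.1%) and EB D2 (2.71%), while at ESC D0 (2.17%), EB D4 (1.87%), EB D6 (1.78%) and EB D8 (4.14%) no gene of the 10 was. Tktl2, Magea5 and Magea8 passed the filter through the DNMT lines alone, since none of the 41 TET libraries held 1 RPKM of them, and Magea5 and Magea8 could not reach the limit of size. With 0 to 3 genes called at a condition, the shares are too coarse to set apart from those of all genes. TET_KO stood above TET_WT without overlap for 2 (ESC D0) to 6 (EB D8) of the 10. Over all genes tested this share was 23.2% (EpiLC D2) to 40.9% (EB D8). TET_KO stood below for 0 to 4 of the 10, and for 8.65% (EB D4) to 33.5% (EpiLC D1) of all genes. Lack of overlap by itself thus does not set these genes apart in the TET lines. The 11 calls became 4 with a pseudocount of 1 RPKM, which shrinks the change of low genes, and 23 with 0.1 RPKM, so for genes near 0.5 RPKM the limit of size depends on the pseudocount.

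The course of the genes was tested within the TET lines, against ESC D0. In TET_WT, 2 of 10 were called at EpiLC D1 (all genes: 12.9% in either direction), 3 at EpiLC D2 (27.6%), 2 at EB D2 (15.2%), 2 at EB D4 (20.2%), 2 in EB D6 (27.3%) and 2 at EB D8 (32.7%). These shares lay near those of all genes. The 7 calls up to EB D2 were rises and the 6 later ones were falls of Tuba3a and Rbmxl2. Rbmxl2 at EB D8 fell in TET_WT to 1.22, 1.46 and 1.77 RPKM, against 37.7, 41 and 38.1 RPKM at ESC D0 (log2 change -4.32, SE 0.14, adjusted p = 9.11e-17). Tuba3a fell too (log2 change -3.38, SE 0.0969, adjusted p = 1.27e-17). The deepest point of both was EB D6, with log2 changes of -4.63 for Tuba3a and -5.02 for Rbmxl2. In a line that the choice of the genes did not use, these 2 genes thus fell in embryoid bodies, and their levels in DNMT_WT ran the same way. Nlrp4c rose in TET_WT at EpiLC D1 (log2 change 1.67, SE 0.159, adjusted p = 3.67e-08) and at EpiLC D2 (log2 change 1.82), Efhc2 at EpiLC D1, EpiLC D2 and EB D2, Tuba3b at EpiLC D2 (log2 change 1.11) and Nxf2 at EB D2 (log2 change 1.002).

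In TET_KO the calls against ESC D0 were 3 at EpiLC D1 (all genes: 22%), 4 at EpiLC D2 (28.5%), 4 at EB D2 (15.4%), 5 at EB D4 (19.9%), 5 in EB D6 (25.4%) and 4 at EB D8 (28.1%), 16 of them higher and 9 lower. Nxf2 was higher than at ESC D0 from EpiLC D2 to EB D8, with log2 changes of 1.04 to 1.63. Scml2 was higher at EB D4 (log2 change 1.80, SE 0.128, adjusted p = 4.83e-11) and EB D6 (log2 change 1.25), and Efhc2 at EB D4 (log2 change 1.04). Rbmxl2 and Tuba3a fell in TET_KO as well, by EB D8 to log2 changes of -3.33 and -2.46. Whether the 2 TET lines differed in these steps was tested as an interaction. Of the 10 genes, 0 were called at EpiLC D1 (all genes: 4.05%), 2 at EpiLC D2 (6.45%) and 1 at EB D2 (5.2%). At EB D4 1 was called (9.98%), in EB D6 1 (8.84%) and at EB D8 0 (13.2%). These counts are too coarse to set apart from the shares of all genes. The values of the called genes are given in the closing section.

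To place the 10 genes among others of their kind, a list of 26 germline genes known to be sensitive to DNA methylation was read in the same fits (25 passed the filter). It holds genes of germ cell RNA control (Dazl, Ddx4), transposon defence (Mael, Mov10l1, Asz1, Gpat2), meiotic chromosomes (Sycp1, Sycp2, Sycp3) and others. In DNMT_KO, 5 of 25 were called higher at ESC D0, 8 at EpiLC D2 and 22 at EB D8, against the 0.511%, 1.09% and 9.76% of all genes given above. The median log2 change of the list at EB D8 was 2.85, and that of all genes 0.01. At ESC D0 the largest were Asz1 (log2 change 2.74, SE 0.152, adjusted p = 4.09e-06) and Sycp1 (log2 change 1.57), and at EB D8 they were Sohlh2, a transcription factor of early germ cells (log2 change 5.93), Dazl (5.13), Rpl10l (4.98) and Tex19.1 (4.69). Dazl illustrates the course: it averaged 114 ± 2.29 RPKM in DNMT_KO (SD, n = 3) and 40.9 ± 0.329 RPKM in DNMT_WT (n = 2) at ESC D0, and 21.3 ± 0.95 RPKM in DNMT_KO and 0.124 ± 0.0297 RPKM in DNMT_WT at EB D8 (n = 3 each). Like Tuba3a and Rbmxl2, it was kept in part in DNMT_KO where DNMT_WT came close to 0.

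In TET_KO the list was called higher for 11 of 25 at ESC D0, 12 at EpiLC D2 and 7 at EB D8, and lower for 2, 3 and 0. The shares of all genes called higher were the 4.61%, 4.8% and 5.84% given above. At ESC D0 the list's median log2 change was 0.52, against 0.06 over all genes, while none of the 10 testis-type genes was called there. The largest at ESC D0 were Mov10l1 (log2 change 2.47, SE 0.135, adjusted p = 2.71e-07), Mael (2.08), Ddx4 (2.01) and Sycp3 (1.94). At EB D8 they were Gpat2 (2.65), Mael (2.36), Ddx4 (1.98) and Tex19.1 (1.75). The difference between the 10 genes and this list was not tested.

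**Figure D5:**
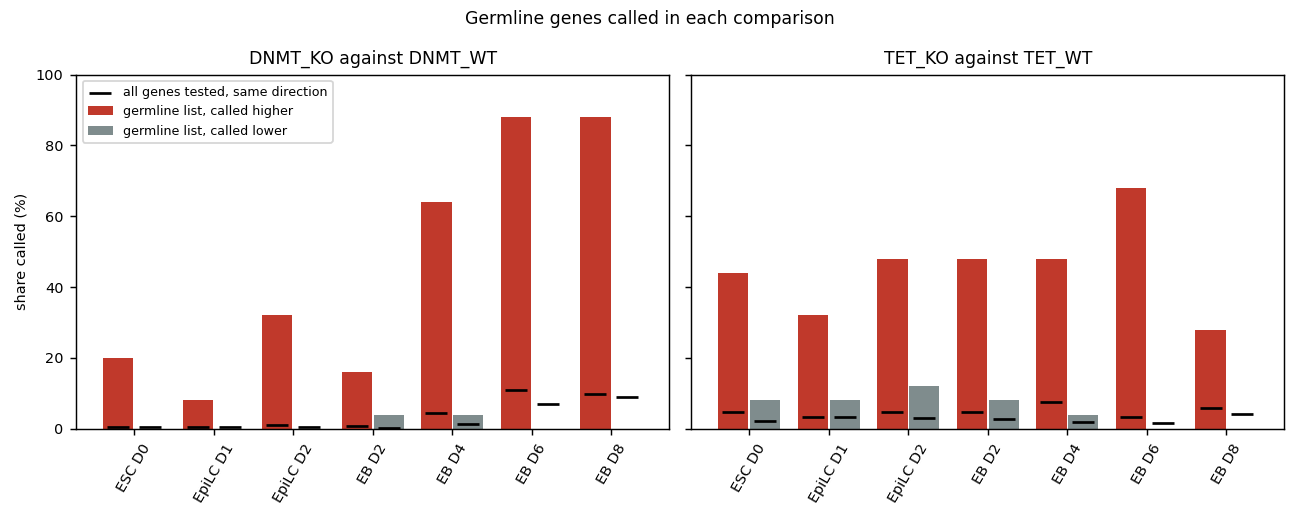
Share of the 25 germline genes tested that were called higher (red) or lower (grey) at each condition (horizontal axis), in percent (vertical axis), for DNMT_KO against DNMT_WT and for TET_KO against TET_WT. Black marks give the share of all 15267 genes called in the same direction. In DNMT_KO 22 of 25 were called higher at EB D8, and in TET_KO 17 of 25 at EB D6.

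Close relatives of the 10 genes were read in the same fits. Of 28 relatives, 26 were in the table and 20 were tested, and in DNMT_KO at ESC D0 4 were called higher (all genes: 0.511%), all of them MAGE genes: Magea6 (log2 change 2.69, SE 0.102, adjusted p = 1.75e-07), Magea3 (log2 change 2.18), Magea2 (1.60) and Magea4 (1.08). They share sequence with Magea5 and Magea8, so part of their reads may be held in common. At EB D8 3 of 20 were called higher in DNMT_KO (all genes: 9.76%), Magea4 (2.88), Nxf3 (2.20) and Tktl1 (1.17), and 1 lower (all genes: 9.1%), Rbmx (-1.77), the X-linked gene of the family of Rbmxl2. These counts at EB D8 lay near the shares of all genes. In TET_KO Nxf3, a neighbouring member of the export factor family, was called lower at all 7 conditions (log2 changes of -3.46 to -2.40), Tuba4a at ESC D0 (-1.21), EpiLC D2 (-1.27), EB D6 (-1.14) and EB D8 (-1.12), Rbmxl1 at EpiLC D2 (-1.04) and Rbmx at EB D2 (-1.03). Those called higher in TET_KO included Nlrp4a at ESC D0 (1.12), Nlrp4f at EpiLC D1 (1.65), EB D2 (1.10) and EB D4 (1.11) and Nxf7 at EB D6 (1.16). Among the tubulins of general use, Tuba1b ranged from 169 to 483 RPKM over all libraries, above the highest level of Tuba3a (113 RPKM), while Tuba1a, Tuba1c and Tuba4a overlapped the range of Tuba3a.

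Markers of the cells that could carry these genes were read beside them. Of 16 spermatocyte and spermatid markers, 2 passed the filter, Ldhc and Tssk6, with log2 changes of 0.99 and -0.09 in DNMT_KO at EB D8 (adjusted p = 6.25e-06 and 0.732), neither called. The protamine gene Prm1, Acrv1 and Akap4 stood at 0 in all 79 libraries, and the 16 summed to 1.36 to 2.08 RPKM in DNMT_KO and 0.302 to 0.651 RPKM in DNMT_WT at EB D8. The defining markers of late male germ cells were thus at or near 0. Of 13 markers of primordial germ cells and spermatogonia, 12 were tested, and 8 were called higher and 1 lower in DNMT_KO at EB D8 (all genes: 9.76% and 9.1%), led by Dmrt1 (4.39), Prdm14 (3.65) and Stra8 (2.91), with Zbtb16 (-3.01) lower. The 13 summed to 179 to 189 RPKM in DNMT_KO and 116 to 124 RPKM in DNMT_WT at EB D8, but several of them (Lin28a, Prdm14, Kit) are also made in pluripotent cells, and the part of such cells in the levels of the 10 genes was not tested. The 12 somatic testis markers summed to 26.5 to 29.0 RPKM in DNMT_KO and 46.8 to 52.2 RPKM in DNMT_WT at EB D8. Most of it came from Gata4 and other genes that are not particular to the testis, and the cells that made them were not identified. Gata4 (-1.50) and Sox9 (-1.01) were called lower, 2 of 8 tested (all genes: 9.1%). Of 12 oocyte markers 4 were tested, with sums of 1.69 to 3.02 RPKM in DNMT_KO and 0.715 to 1.26 RPKM in DNMT_WT at EB D8, and Zp3 called higher (1.84) and Lhx8 lower (-1.19) there, shares too coarse to set apart from those of all genes.

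The genes were also compared with each other and with other genes over the 28 group means on the log2 scale, as a description. The other genes were those that passed the filter and had no clone or predicted-gene name. The correlation of each with the mean of the other 9 ran from 0.609 for Scml2 and 0.655 for Rbmxl2 to 0.945 for Tuba3b and 0.95 for Nlrp4c. Among these other genes, the 5 most like the mean profile were Dazl (r = 0.962), Ccdc152 (0.944), Asz1 (0.938), Otud6a (0.933) and Gtsf1 (0.921). Of the 5, Dazl and Asz1 stand in the germline list. Otud6a averaged 3.05 RPKM in DNMT_KO at EB D8 and was at 0 in DNMT_WT. All 28 points share their 4 lines, and groups of the same line are not independent. The points include the groups of DNMT_KO and DNMT_WT, and the contrast of these lines chose the genes. Some likeness among the genes, and to other genes higher in DNMT_KO, is therefore built in by that choice. The correlations carry no test of a shared course.

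The 2 parental lines differed in the levels from which the genes started. At ESC D0 Tuba3a averaged 90 ± 0.0184 RPKM in DNMT_WT (SD, n = 2) and 14.2 ± 1.37 RPKM in TET_WT (n = 3), Tuba3b 7.35 ± 0.47 RPKM in DNMT_WT and 0.35 ± 0.0879 RPKM in TET_WT, and Nlrp4c 2.46 ± 0.336 RPKM in DNMT_WT and 0.203 ± 0.191 RPKM in TET_WT. Efhc2 averaged 2.47 ± 0.0461 RPKM in DNMT_WT and 0.295 ± 0.0648 RPKM in TET_WT. Rbmxl2 differed less, at 61.4 ± 3.53 RPKM in DNMT_WT and 38.9 ± 1.77 RPKM in TET_WT. For each of the genes named here every DNMT_WT library lay above every TET_WT library. This difference was not tested, and the knockout effects of the 2 pairs of lines start from different levels.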

How the data were processed

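The deposited data are 1 table, made by the authors, of log2 RPKM per gene and library, with symbols, Ensembl identifiers and GRCm38 coordinates. Per the submitters' processing notes, reads were processed with Trim Galore 0.6.1, cutadapt 1.18 and HISAT2 2.1.0 on GRCm38. For counting, the tool, the annotation and the treatment of reads shared by several genes were not given in the sources used here. Per the labels, libraries were strand-specific and made after oligo-dT capture.

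From the deposited log2 values, reads were recovered with the merged exon lengths of GENCODE M21. A gene without a read carried the value of 0.9 reads. Such a value is given as 0 RPKM here, while the tests on log2(RPKM + 0.5) kept the deposited value. Of values between 1 and 20 reads, 96.9% were whole within 0.1 of a read. All 438 values of the 10 genes between 1 and 100 reads were whole as well. The table held 35269 entries, and 39 duplicates were left out. The 15267 genes that reached 1 RPKM in 2 or more libraries were tested with limma 3.58.1 in R 4.3.3 on log2(RPKM + 0.5), with trend and robust settings, a scale that understates the change of low genes. A knockout comparison used all 4 lines at a condition, and a comparison with ESC D0 all 4 lines at both. P-values are two-sided and adjusted by Benjamini-Hochberg over all genes tested. Fits were tested on simulated data.

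Groups came from the labels, and 1 column matched only its group (DNMT_WT at EpiLC D1). The genes, the lists and the rules were chosen with earlier results of these data known. The DNMT_KO against DNMT_WT contrast chose the 10 genes, so it carries no test of them. Named beyond the 10 genes are their relatives (some results are not reported here), up to 4 called genes per list with the largest change, and the 5 genes most like the mean profile. Ldhc, Tssk6, Prm1, Acrv1, Akap4, Nxf1, Tuba1b and Nlrp4e were named as reference levels after their values were seen. Promoter sequences are from RefSeq. The alternatives were pseudocounts of 0.1 and 1 RPKM, other filters and scalings, fits on the compared lines only, a replicate block, leaving out each library, and limma's voom on the recovered reads, which was chosen after seeing the data.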

Additional observations from a re-analysis of the deposited data

Results flagged for a closer look

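For 5 genes the difference between TET_KO and TET_WT at 1 condition differed from that at ESC D0, by limma's interaction test adjusted over 15267 genes. The value is the log2 change at the condition minus that at ESC D0. For Efhc2 at EpiLC D2 it was -1.8604 (adjusted p = 6.85e-07) and for Rbmxl2 at EpiLC D2 -1.1139 (adjusted p = 1.36e-05), where 6.45% of all genes tested passed. TET_KO stood below TET_WT in Efhc2 at ESC D0 as well, without overlap, with a ratio of means of 0.2, against 0.102 at EpiLC D2. A pseudocount of 0.5 RPKM shrinks the change at the low levels of ESC D0, and with voom on the recovered reads the value for Efhc2 was -1.08 (adjusted p = 0.262), which is no call. Rbmxl2 stood above TET_WT in TET_KO at ESC D0 and below it at EpiLC D2, without overlap at either.

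For Nlrp4c at EB D2 the value was 1.5928 (adjusted p = 0.000193), where 5.2% of all genes passed. For Scml2 at EB D4 it was 1.6967 (adjusted p = 2.29e-07), where 9.98% passed, and for Tuba3a at EB D6 1.138 (adjusted p = 5.09e-05), where 8.84% passed. Quantile normalization ended the calls of Rbmxl2 (-0.89) and Tuba3a (0.94). For Tuba3a at EB D6 the TET_WT level rested on 4 reads in all. As given above, its call in TET_KO against TET_WT there also ended with a pseudocount of 1 RPKM. At ESC D0 Nlrp4c, Scml2 and Tuba3a overlapped between the TET lines. The 2 TET_KO libraries of Nlrp4c at EB D2 both stood above the 3 of TET_WT, and so did all 3 of Scml2 and of Tuba3a at their conditions. The comparisons share the ESC D0 libraries, and the counts called are too coarse to set apart from the shares of all genes. At EpiLC D1 and EB D8 none of the 10 genes was called in this test.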

How the results depend on the processing

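None of the 11 called changes in TET_KO against TET_WT turned its sign under any alternative. Signs of the calls in the other comparisons were not checked under every alternative. The log2 change of Tuba3a at ESC D0 in TET_KO against TET_WT, which was not called, was -0.08 with each library centred on its median. The 11 calls of the 10 genes in TET_KO against TET_WT became 23 with a pseudocount of 0.1 RPKM, 4 with 1 RPKM and 27 with voom on recovered reads, and 10 to 12 when 1 library was left out. The 13 calls in TET_WT against ESC D0 became 30 with 0.1 RPKM and 37 with voom (12 to 14 without 1 library), and the 25 in TET_KO became 16 with 1 RPKM and 38 with voom (24 to 27). The 5 interaction calls became 16 with 0.1 RPKM and 13 with voom (4 to 7). A larger pseudocount shrinks changes of low genes by construction, and a smaller one or voom widens them. The 51 calls in DNMT_KO ranged from 50 to 52 without 1 library, and the germline list from 79 to 83 for DNMT_KO (81) and 86 to 91 for TET_KO (89). Under the other filters and scalings, and in fits on the compared lines only, these counts stayed within 1.5 times. Between same-numbered knockout and parental libraries of a condition, 4 of 36 correlations passed 0.1 (median 0.0047). Same-numbered libraries of different conditions were not correlated, so these values do not settle whether the numbers pair the samples. A replicate block gave 10, 13, 24, 5 and 49 calls of the 10 genes and 78 and 88 of the list. Quantile normalization left 8 of the 11 TET_KO calls and centring 10. Levels under about 3 reads are not resolved at this depth.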
